A study of Mus musculus with 12 samples.

Results

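Retinoid metabolism and response were followed through 9 genes in primary cultures from the muscle layers of the mouse intestine and in strips of that muscle. The genes were chosen by symbol among the 52550 genes of the deposited count table. They are the retinal dehydrogenases Aldh1a1, Aldh1a2 and Aldh1a3, the retinal reductase Dhrs3, the retinoic acid binding proteins Crabp1 and Crabp2, the retinoic acid hydroxylase Cyp26b1, and the retinoic acid receptors Rara and Rarb. All 9 passed the filter on low counts that left 17700 genes for testing.

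RNA sequencing covered 12 libraries from wild-type mice, in 4 groups of 3 replicates that the study calls biologically independent. P plate cells were kept for 28 days on well plates in P medium, which is DMEM with 10% FBS. M plate cells were kept as long on well plates in M medium, which is Advanced DMEM/F-12 with N2, B27 without vitamin A, 1 mM N-acetylcysteine, 100 ng/ml of Noggin (an inhibitor of BMP ligands), 1 µg/ml of R-spondin1 (which strengthens Wnt signals) and 10 µM of the ROCK inhibitor Y27632. M scaffold cells had M medium too, but on a scaffold of electrospun gelatin, and intestinal muscle strips were the positive control, native tissue although the labels also give it the day and source name used for cells. All cultures began as mixed primary cells, and the animals, their age and any pooling are not described in the sources used here. The media differ in serum, basal medium, supplements and factors at once, so the parts of these in a difference cannot be told apart.

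Retinoic acid is made from vitamin A in steps. Retinol is oxidised to retinal, which enzymes of the ALDH1A family oxidise further to retinoic acid, while DHRS3 returns retinal to retinol. Cellular binding proteins carry retinoic acid to its nuclear receptors or to CYP26 hydroxylases, which break it down. Rarb, Dhrs3, Crabp2 and Cyp26 genes are themselves known to respond to retinoic acid, and in the gut the pathway is known for its part in the development of the enteric nervous system, smooth muscle and immune cells.

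Crabp2 fell to low levels in M medium. Aldh1a2 rose 1.88-fold between the media on plates, a call made in only 2 of the 6 fits that left out 1 library of these groups, and the other 7 genes did not pass that test. No gene of the 9 passed the test between scaffold and plate in the unpaired fit of all 12 libraries, but a paired fit called Aldh1a1 lower on the scaffold, and DESeq2 called Cyp26b1 higher there. The strips held more Aldh1a2 and Aldh1a3 and less Dhrs3 than any of the cultures. Each comparison was tested with edgeR's quasi-likelihood test, with p-values adjusted over the 17700 genes by the method of Benjamini and Hochberg, and an adjusted p under 0.05 was called. Log2 fold changes are given with their SE, and levels as CPM, counts scaled to library size with TMM factors, mean ± SD of 3 libraries.

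In M plate against P plate, 1 of the 9 genes was higher (Aldh1a2) and 1 lower (Crabp2), where 14.3% of all genes tested were called higher and 10.6% lower. In M scaffold against M plate none was called in either direction, beside 1.53% and 1.64% of all genes. The lowest adjusted p among the 9 genes there was 0.0844, for Cyp26b1. DESeq2 called Cyp26b1 higher, and over all genes it called 1146 higher and 873 lower. Of the M scaffold libraries, replicate 3 held 42.9 CPM of Cyp26b1 against 7.40 and 8.76 CPM. A replicate block within the 6 libraries of that comparison, whose numbers pair the samples, called Aldh1a1 lower, and 787 genes higher and 931 lower in place of 271 and 291. In M scaffold against P plate none was higher and 1 was lower (Crabp2), beside 15.1% and 9.61%. Against strips, 2 genes were higher and 2 lower in P plate, beside 30.5% and 32.7% of all genes. In M plate 1 was higher and 3 were lower than in strips, beside 26.5% and 28.4%. In M scaffold 2 were higher and 2 lower, beside 24.5% and 27.6%. The counts of these 9 genes lie near those shares, so by themselves they are no result about the 9 genes. The comparisons with strips share the strip libraries, and those among cultures share culture libraries.

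Gene counts ran from 21396485 to 116643512 per library. Where a gene had no count, up to 3 counts were taken as possible from counting error alone, equal to 0.0257 to 0.140 CPM before TMM scaling. Summed over 10 smooth muscle markers, strips held 40927 to 43490.5 CPM and the cultures 3968 to 14530.1 CPM, with each marker found in each group. P plate replicate 1 stood apart, with 446 CPM over 10 mesothelial markers against 4276 and 3409 CPM in replicates 2 and 3. Its sum over 10 macrophage markers was 21588 CPM against 4077 and 2286 CPM. M scaffold replicate 3 held 312 CPM over 10 endothelial markers against 2412 and 1718 CPM, and strips replicate 2 held 601 CPM over 10 epithelial markers against 103 and 88.4 CPM. Without P plate replicate 1 and M scaffold replicate 3, a setting chosen after seeing the data, M plate had 2 of the 9 genes above and 2 below P plate. Of all 18028 genes then tested, 3308 were higher and 2661 lower in that comparison. Against strips the counts were then 3 higher and 2 lower in P plate, beside 5445 and 6374 of all genes. They were 3 and 3 in M plate, beside 5425 and 6159, and 2 and 2 in M scaffold, beside 4932 and 5485. Calls over all genes rose in this setting too, so these counts are no result about the 9 genes. In tissue and mixed cultures, fewer cells of a type and less RNA per cell cannot be told apart.

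**Figure D1:**
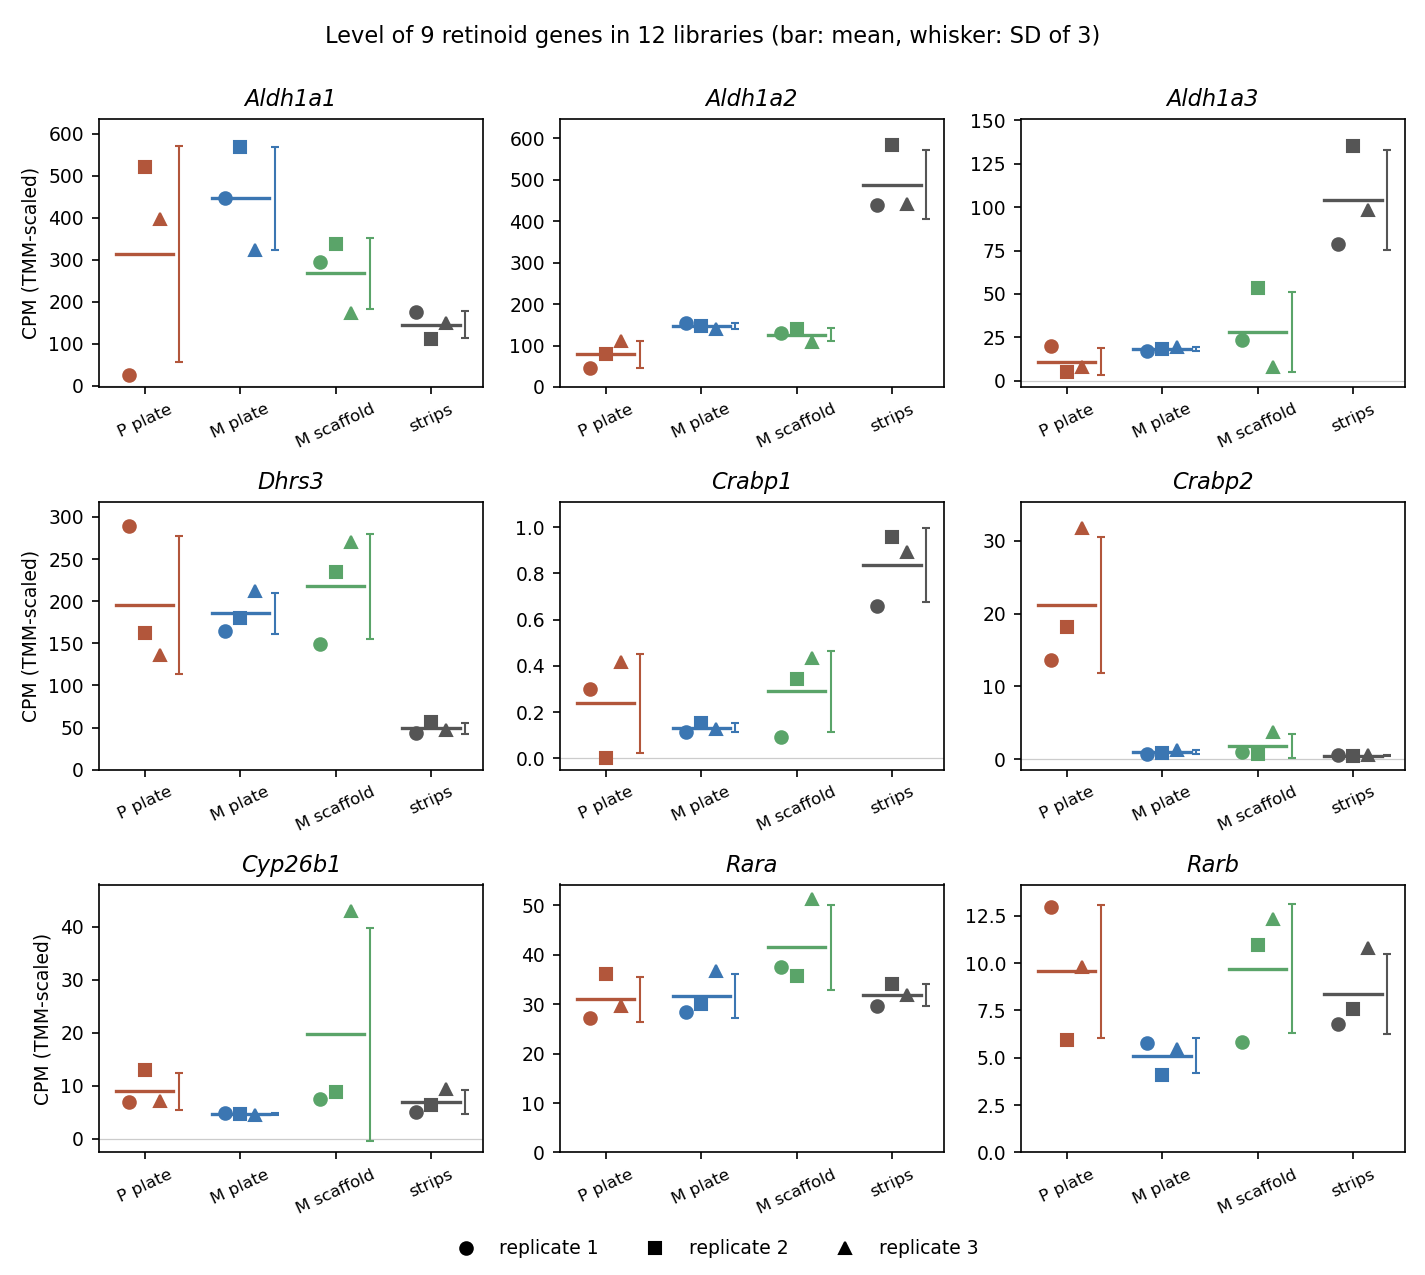
Level of each of the 9 genes, in TMM-scaled CPM on linear axes that differ between panels, by group; symbols are the 3 libraries of a group, the bar is their mean and the whisker their SD. Aldh1a2 and Aldh1a3 are high in strips, Dhrs3 is low there, Crabp2 is high in P plate, and P plate replicate 1 is low for Aldh1a1 at 24.0 CPM.

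Aldh1a2, the main retinal dehydrogenase of the embryo (chr9:71215789-71296243, GRCm38, plus strand), had its highest levels in strips. The strips held 440.2, 584 and 442 CPM, a mean of 489 ± 82.8. M plate libraries held 154, 148 and 139.8 CPM, M scaffold libraries 129, 139 and 109 CPM, and P plate libraries 44.9, 80.0 and 110.3 CPM. Every strip library lay above every culture library, and every M plate library above every P plate library. Aldh1a2 was lower than in strips in P plate, with a log2 fold change of -2.64 ± 0.28 (adjusted p = 2.16e-05), in M plate (-1.73 ± 0.27, 0.000414) and in M scaffold (-1.96 ± 0.27, 0.000281). The levels of M plate, 147 ± 7.07 CPM, and P plate, 78.4 ± 32.7 CPM, differed by 0.91 ± 0.27 (adjusted p = 0.0306). That rise was no longer called without P plate replicate 2 (adjusted p = 0.06) or without M plate replicate 1 (0.0891), 2 (0.0787) or 3 (0.0613). It was also not called in a fit of the 6 plate libraries alone (0.101). M scaffold against M plate gave -0.23 ± 0.26 (adjusted p = 0.666), although the libraries of these groups did not overlap. M scaffold against P plate gave 0.68 ± 0.26 (adjusted p = 0.0859), which DESeq2's Wald test called (0.70, 0.043).

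Aldh1a3, the third enzyme of the family (chr7:66390890-66427517, minus strand), was also a gene of the strips. They held 78.7, 135 and 98.3 CPM, against 16.9, 18.0 and 19.6 CPM in M plate and 20.0, 5.04 and 7.84 CPM in P plate. M scaffold libraries were spread from 7.89 in replicate 3 through 23.4 in replicate 1 to 53.2 CPM in replicate 2. No culture library reached the lowest strip library, and the culture groups overlapped with each other. Against strips the log2 fold change was -3.25 ± 0.67 in P plate (adjusted p = 0.00167), -2.52 ± 0.65 in M plate (0.00734) and -1.89 ± 0.63 in M scaffold (0.0281). The call in M scaffold was lost without M scaffold replicate 1 (adjusted p = 0.0804) or 3 (0.056, log2 fold change -1.43), or without strips replicate 2 (0.0759) or 3 (0.0515). Between M plate and P plate the change was 0.73 ± 0.62 (adjusted p = 0.426). Without P plate replicate 1 and M scaffold replicate 3 together it was 1.50 with an adjusted p of 0.0134, and for M scaffold against P plate it was then 2.61 (0.00122).

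Several cell type lists were lower in culture, as these 2 genes were. Of 10 smooth muscle markers 8 were lower in P plate than in strips, 10 in M plate and 8 in M scaffold. Of all genes, 32.7%, 28.4% and 27.6% were lower. Of 10 enteric neuron markers, 10, 10 and 8 were lower in the same comparisons, and their sums were 1464 to 1988 CPM in strips, 438 to 654 in M scaffold, 163 to 289.9 in M plate and 32.3 to 76.2 in P plate. Chat was at 0 in P plate. Of 10 epithelial markers 8, 10 and 9 were lower. Of 8 markers of interstitial cells of Cajal 7, 4 and 2 were lower, and 1, 0 and 2 higher. Other lists went in both directions or upwards. Of 10 mesothelial markers 2, 2 and 3 were lower and 2, 1 and 0 higher, and of 10 glial markers 9, 3 and 1 lower and 1, 3 and 5 higher. Of 10 fibroblast markers 5, 0 and 1 were lower, of 10 endothelial markers 7, 0 and 1, and of 10 macrophage markers 0 in each. The part of these cell types in the levels of Aldh1a2 and Aldh1a3 was not tested.

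Aldh1a1, an enzyme of the same step that is broadly found in adult tissues (chr19:20492715-20643465, plus strand), followed another order. M plate libraries held 448, 568 and 323 CPM (446 ± 123), M scaffold libraries 294, 336 and 172 CPM (267 ± 85.0), and strips 175, 110.4 and 149 CPM (145 ± 32.7). P plate libraries held 24.0, 520.0 and 396 CPM, so that the highest was 21.7 times the lowest. Neighbours in the order of means, M plate, P plate, M scaffold and strips, overlapped in each case, while every M plate library lay above every strip library. The main edgeR fit, of all 12 libraries, did not call the gene in any comparison. M plate against P plate gave 0.51 ± 0.75 (adjusted p = 0.658), and -0.04 without P plate replicate 1. P plate, M plate and M scaffold against strips gave 1.11 ± 0.75 (0.22), 1.62 ± 0.76 (0.0949) and 0.88 ± 0.75 (0.344).

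The tests against strips changed without P plate replicate 1. P plate was then above strips by a log2 fold change of 1.62 (adjusted p = 0.00135). In fits of the compared groups alone, which do not hold that library, M plate was above strips by 1.63 (0.000545) and M scaffold by 0.89 (0.0327). In M scaffold against M plate the change was -0.74 ± 0.75 (adjusted p = 0.614). With the replicate number as a block within those 6 libraries it was -0.75 with an adjusted p of 0.0263. The library low for Aldh1a1 was the one low for mesothelial markers: Upk3b stood at 166 CPM there against 1399 and 1013, and Lrrn4 at 22.2 against 752 and 445 CPM. None of the 10 mesothelial markers was at 0 in any group, and their sums ran from 2383 to 2854 CPM in M plate. In M scaffold they ran from 1278 to 1954 CPM, and in strips from 3054 to 3608 CPM. Strips had high mesothelial sums beside low Aldh1a1, but the single markers went in both directions. Against strips, 2 of the 10 were called higher and 2 lower in P plate, 1 and 2 in M plate, and 0 and 3 in M scaffold. The part of mesothelial cells in the Aldh1a1 values was not tested.

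Set on a common scale of CPM per kilobase of exon, the 3 enzymes together came to 268 ± 36.4 in strips, 159 ± 26.5 in M plate, 116 ± 28.7 in M scaffold and 100.4 ± 62.1 in P plate. The strip mean was 1.68 times that of M plate, 2.31 times that of M scaffold and 2.67 times that of P plate. Every strip library lay above every culture library. Within this sum, Aldh1a2 made up 80.4% ± 2.55 in strips, against 41.4% ± 5.80 in M plate, 49.1% ± 6.83 in M scaffold and 43.5% ± 22.3 in P plate. Aldh1a1 made up 11.3% ± 3.68 in strips, 56.0% ± 6.35 in M plate, 46.1% ± 4.23 in M scaffold and 50.8% ± 30.2 in P plate. In P plate, replicate 1 differed from the others, with 16.8% Aldh1a1 against 74.3% and 61.4%. Aldh1a3 made up 8.34% ± 1.31 in strips, 2.54% ± 0.610 in M plate, 4.79% ± 3.12 in M scaffold and 5.66% ± 8.02 in P plate. Its share reached 14.9% in P plate replicate 1, above every strip library, and 8.17% in M scaffold replicate 2, within the strips' range of 6.90% to 9.47%. The sums and shares are descriptions, with no test.

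**Figure D2:**
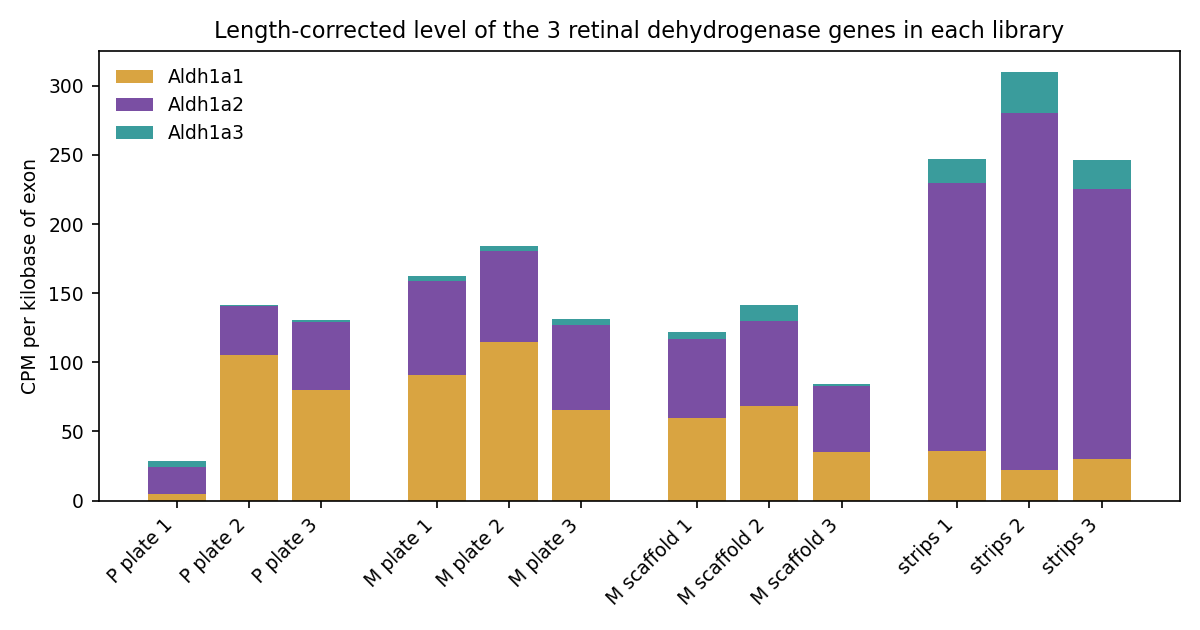
Stacked level of Aldh1a1, Aldh1a2 and Aldh1a3 in each of the 12 libraries, in CPM per kilobase of exon on a linear axis from 0, so that segments can be compared between genes. The strip bars, 247 to 309.8 in all, are mostly Aldh1a2, and the bar of P plate replicate 1 is the shortest at 29.0.

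Dhrs3, the reductase that turns retinal back into retinol (chr4:144892827-144928209, plus strand), was high in all cultures and low in strips. The strips held 44.0, 56.4 and 46.8 CPM (49.1 ± 6.49). P plate libraries held 289, 162 and 136 CPM (196 ± 82.2), M plate libraries 165, 179.6 and 212 CPM (186 ± 24.3), and M scaffold libraries 149, 235 and 269.7 CPM (218 ± 62.2). The lowest culture library was above the highest strip library, and the culture groups overlapped. The log2 fold change against strips was 2.00 ± 0.30 in P plate (adjusted p = 0.000205), 1.92 ± 0.30 in M plate (0.000382) and 2.15 ± 0.30 in M scaffold (0.000275). M plate against P plate gave -0.08 ± 0.29 (adjusted p = 0.874; 0.32 without P plate replicate 1), and M scaffold against M plate 0.23 ± 0.29 (0.687). Macrophage markers moved the same way: 10 of 10, 10 of 10 and 8 of 10 were higher in P plate, M plate and M scaffold than in strips. Of all genes, 30.5%, 26.5% and 24.5% were higher. Summed macrophage levels were 159 to 225 CPM in strips. In culture they were 2286 to 21588 CPM (P plate), 4047 to 4769.5 CPM (M plate) and 1829 to 4113 CPM (M scaffold), with none of the markers at 0. The library with the highest macrophage sum, P plate replicate 1, also had the highest Dhrs3 of the 12. Other culture libraries did not keep the same order. M scaffold replicate 2 had the lowest macrophage sum in culture, 1829 CPM, beside 235 CPM of Dhrs3, and M plate replicate 1 had 4047 CPM beside 165 CPM. Macrophages were not the only list with higher markers in culture. Of 10 fibroblast markers 3, 3 and 4 were higher than in strips in P plate, M plate and M scaffold, and 5, 0 and 1 lower. Summed fibroblast levels were 2962 to 3319 CPM in strips and 3171 to 15481 CPM in culture. Of 10 endothelial markers 0, 9 and 8 were higher and 7, 0 and 1 lower. The part of macrophages or other cells in the Dhrs3 levels was not tested.

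**Figure D3:**
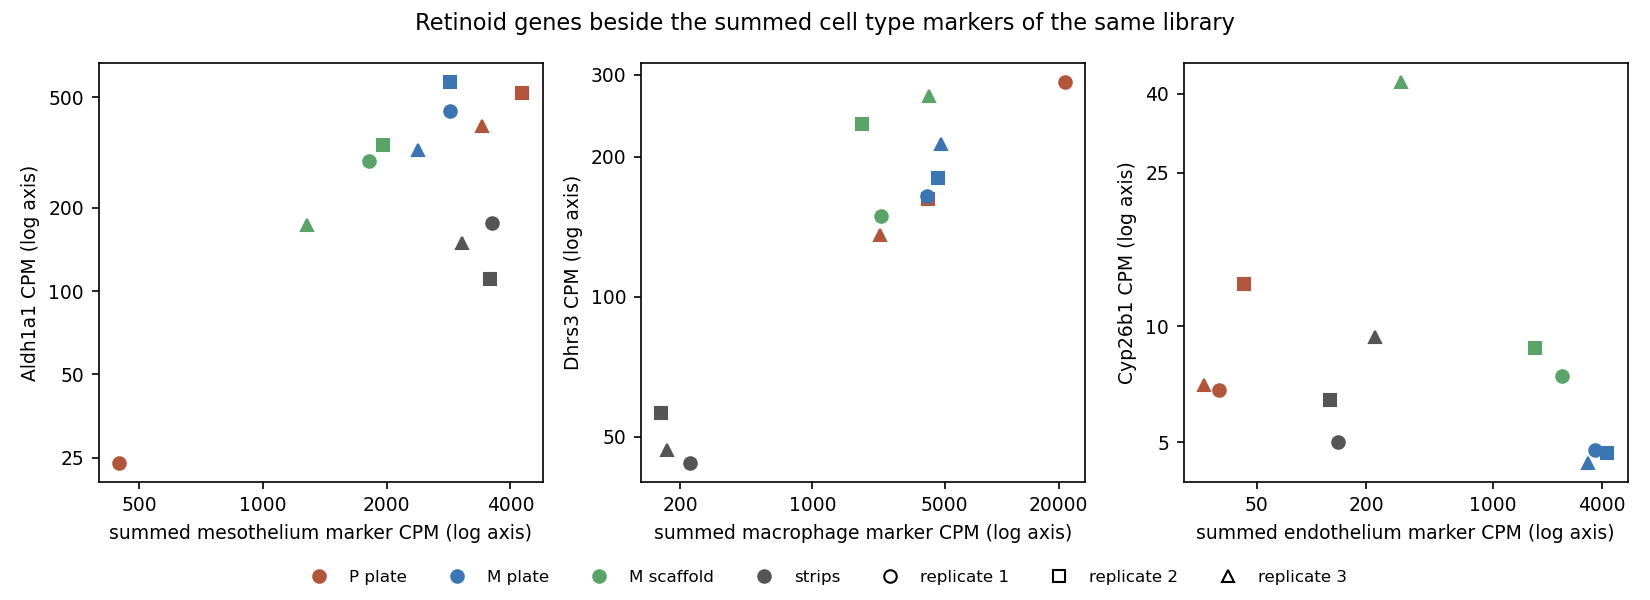
TMM-scaled CPM of Aldh1a1, Dhrs3 and Cyp26b1 (log axes) against the summed CPM of mesothelial, macrophage and endothelial markers of the same library (log axes); colours are groups and symbols replicates. P plate replicate 1 is lowest on both axes for Aldh1a1 (24.0 and 446 CPM), strips are low on both axes for Dhrs3, and M scaffold replicate 3 is highest for Cyp26b1 at 42.9 CPM.

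Crabp2, which carries retinoic acid to its nuclear receptors (chr3:87948666-87953376, plus strand), gave the largest change of the 9 genes between the media. P plate libraries held 13.7, 18.2 and 31.7 CPM (21.2 ± 9.39). M plate libraries held 0.774, 0.888 and 1.23 CPM (0.963 ± 0.236), M scaffold libraries 1.04, 0.652 and 3.74 CPM (1.81 ± 1.68), and strips 0.575, 0.375 and 0.545 CPM (0.498 ± 0.108). The highest library of the other groups, at 3.74 CPM, lay below the lowest P plate library, and M plate did not overlap with strips either. The log2 fold change in M plate against P plate was -4.44 ± 0.63 (adjusted p = 0.000673), in M scaffold against P plate -3.49 ± 0.59 (0.00171) and in P plate against strips 5.37 ± 0.66 (6.13e-05). These 3 calls held in every alternative run.

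M plate against strips gave 0.93 ± 0.61 for Crabp2 (adjusted p = 0.215), and 0.95 (0.0212) in a fit of those 6 libraries alone. M scaffold against strips gave 1.88 ± 0.60 (adjusted p = 0.023), a call that rested on M scaffold replicate 3, without which the change was 0.74 (0.168). It was also lost without strips replicate 1 (adjusted p = 0.0566), 2 (0.0702) or 3 (0.0625). Other cell type lists moved between the media as well. In M plate, 10 of 10 endothelial, 9 of 10 glial, 8 of 10 neuronal and 7 of 10 fibroblast markers were higher than in P plate, and 0 of these were lower. Endothelial sums were 25.5 to 42.2 CPM in P plate and 3339 to 4295 in M plate, and fibroblast sums 3171 to 7599 and 10051.5 to 11078 CPM. Glial sums were 34.4 to 56.7 and 238 to 296 CPM. Of the smooth muscle markers 3 of 10 were lower and 1 higher, with a median log2 fold change of -0.64. Their sums were 5944 to 11597 CPM in P plate and 3968 to 6701 CPM in M plate, and Des, the muscle intermediate filament gene, held 1305, 2062 and 3868 CPM in P plate against 831, 422 and 674 CPM. Of 8 markers of interstitial cells of Cajal 5 were higher and 0 lower, of 10 epithelial markers 1 and 0, and of the 10 mesothelial and 10 macrophage markers none was called. The part of these cell types in the Crabp2 values was not tested.

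Crabp1, the other binding protein (chr9:54764748-54773110, plus strand), was near the limit of detection in culture. The strips held 24, 23 and 77 counts, or 0.657, 0.959 and 0.893 CPM. P plate libraries held 11, 0 and 13 counts, M plate libraries 4, 6 and 8 counts, and M scaffold libraries 3, 11 and 48 counts. The highest culture library, M scaffold replicate 3 at 0.433 CPM, was below the lowest strip library. The count of 0 in P plate replicate 2 allows up to 0.0915 CPM before TMM scaling. Crabp1 was lower in M plate than in strips by -2.65 ± 0.78 (adjusted p = 0.0142), a call lost without M plate replicate 3 (0.0543). P plate and M scaffold against strips gave -1.80 ± 0.74 (adjusted p = 0.0555) and -1.45 ± 0.70 (0.107). Per kilobase of exon, Crabp2 made up 98.1% ± 1.77 of the pair in P plate, 81.3% ± 3.87 in M plate and 75.0% ± 18.5 in M scaffold, but 27.0% ± 7.75 in strips, where Crabp1 was the higher of the pair in each library. That order in strips rests on few counts, with 21, 9 and 47 counts of Crabp2. With no length correction Crabp1 made up 53.3%, 71.9% and 62.1% of the pair in the strip libraries.

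Cyp26b1, a hydroxylase that clears retinoic acid (chr6:84571414-84593908, minus strand), was set apart by 1 scaffold library. M scaffold libraries held 7.40, 8.76 and 42.9 CPM (19.7 ± 20.1), and replicate 3 was 4.90 times the higher of the others. M plate libraries held 4.76, 4.69 and 4.42 CPM (4.62 ± 0.180), P plate libraries 6.84, 12.9 and 7.01 CPM (8.91 ± 3.44), and strips 5.01, 6.42 and 9.39 CPM (6.94 ± 2.24). Every M plate library lay below every library of the other groups. The main edgeR fit, of all 12 libraries, did not call Cyp26b1 in any comparison. M scaffold against M plate gave 2.10 ± 0.61 (adjusted p = 0.0844), where DESeq2's Wald test gave 2.11 with an adjusted p of 0.00733. M plate against P plate gave -0.95 ± 0.60 (adjusted p = 0.276), and -1.11 (0.0211) without P plate replicate 1 and M scaffold replicate 3. M scaffold against strips gave 1.51 ± 0.60 (adjusted p = 0.0549) and was called in 4 of 13 alternatives. These were DESeq2's Wald test (1.5, 0.0227), edgeR with no low-count filter (1.56, 0.0481), and edgeR without M scaffold replicate 1 (1.9, 0.0194) or 2 (1.84, 0.0301). The scaffold library high for Cyp26b1 was the one low for endothelial markers, where Pecam1 stood at 37.0 CPM against 235 and 175 CPM. It also had the highest sums of the scaffold libraries for glial markers (956 CPM against 431 and 559), macrophage markers (4113 against 2294 and 1829) and neuronal markers (654 against 489 and 438), and the lowest for mesothelial markers (1278 against 1810 and 1954). The part of cell makeup in the Cyp26b1 value was not tested.

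The main edgeR fit, of all 12 libraries, called neither receptor gene in any comparison. Rara, a broadly expressed receptor (chr11:98927818-98974942, plus strand), held 27.2, 36.1 and 29.7 CPM in P plate, 28.3, 30.0 and 36.6 in M plate, 37.6, 35.6 and 51.3 in M scaffold and 29.6, 34.1 and 31.9 CPM in strips. P plate, M plate and strips overlapped, and the M scaffold libraries lay above the strips. M plate against P plate gave 0.03 ± 0.17 (adjusted p = 0.917), and M scaffold against M plate and against strips gave 0.39 ± 0.17 (0.207) and 0.38 ± 0.17 (0.0745). Rarb, a receptor whose own gene retinoic acid induces (chr14:16430839-16819156, minus strand) held 12.9, 5.93 and 9.79 CPM in P plate, 5.79, 4.09 and 5.47 in M plate, 5.84, 10.9 and 12.3 in M scaffold and 6.76, 7.59 and 10.8 CPM in strips. M plate was lowest and overlapped with no other group, with changes of -0.90 ± 0.34 against P plate (adjusted p = 0.0796), -0.71 ± 0.34 against strips (0.0987) and, for M scaffold against M plate, 0.92 ± 0.34 (0.154). The difference from P plate was called by DESeq2's Wald test (-0.91, adjusted p = 0.0444) and without P plate replicate 2 (-1.16, 0.0294). That from strips was called in an edgeR fit of the 6 libraries compared alone (-0.7, adjusted p = 0.0223).

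Of the exon bases of Rarb, 34.1% overlap exons of Top2b, a topoisomerase gene on the opposite strand. The sources used here do not give the strand setting of the counts. Reads there may thus have been left out as ambiguous, or not told apart between the 2 genes. Either would change the Rarb levels and its share of the receptors, which was not tested. Top2b held 170.0 ± 12.6 CPM in P plate, 204 ± 5.34 in M plate, 195 ± 41.2 in M scaffold and 178 ± 5.03 CPM in strips, so it was highest by mean where Rarb was lowest. Per kilobase of exon, the third receptor Rarg led in every group, with 65.3% ± 2.29 of the sum of the 3 receptors in P plate, 61.7% ± 3.29 in M plate, 55.6% ± 2.02 in M scaffold and 50.5% ± 4.39 in strips. Rarb made up 7.13% ± 2.97, 4.57% ± 1.13, 7.10% ± 1.75 and 8.86% ± 2.26 in the same order.

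Rarb and the hydroxylase gene Cyp26a1 are textbook targets of the receptors, through paired half-sites before their starts. RefSeq windows of GRCm38.p6, 250 bases before to 50 after a start, were found for 7 of the 9 genes (13 windows). Crabp2 and Aldh1a3 had no window and were not searched. The windows were searched on both strands for direct repeats of the half-sites AGGTCA or AGTTCA or GGGTCA or GGTTCA with a spacer of 5 bases (DR5), 2 bases (DR2) or 1 base (DR1). Among these 7 genes, Rarb alone held a DR5, and none held a DR2 or DR1. Of the 32817 windows used, which do not cover every chromosome, 0.0975% held a DR5, 0.268% a DR2 and 0.222% a DR1, while 43.7% held a single half-site. Of 75 other pathway genes, 50 had a window, and among them Cyp26a1 held a DR5 and Bco1 a DR1, while none held a DR2. Both DR5 elements are shown with their flanks, since their genes are the ones whose repeats the search found with this spacer; capitals mark the half-sites.
Rarb: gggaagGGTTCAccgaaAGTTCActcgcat
Cyp26a1: acaaattAGTTCAcccaaAGTTCAtcttta
The Rarb stretch is chr14:16575506-16575535 on the minus strand, which is the strand of the gene, and its repeat lies 53 to 37 bases before the RefSeq start. The Cyp26a1 stretch is chr19:37697770-37697799, printed on the minus strand while the gene is on the plus strand, and its repeat lies 32 to 16 bases before the start. Of 7 GENCODE transcripts of Rarb, 4 start upstream of the repeat. A match describes these letters only, and no binding was measured.

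The levels of the 2 genes with this repeat ran in different orders. Cyp26a1 held 0.137, 2.89 and 4.81 CPM in P plate, 7.34, 4.49 and 5.17 in M plate, 5.19, 2.33 and 0.983 in M scaffold and 0.63, 0.417 and 0.406 CPM in strips. Its M plate mean was the highest of the 4 groups, where that of Rarb was the lowest. Cyp26a1 was called higher than in strips in P plate (2.43 ± 0.94, adjusted p = 0.0434), M plate (3.55 ± 0.97, 0.00999) and M scaffold (2.53 ± 0.94, 0.0436). P plate replicate 1 lay below every strip library. M plate against P plate gave 1.12 ± 0.86 (adjusted p = 0.374).

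**Figure D4:**
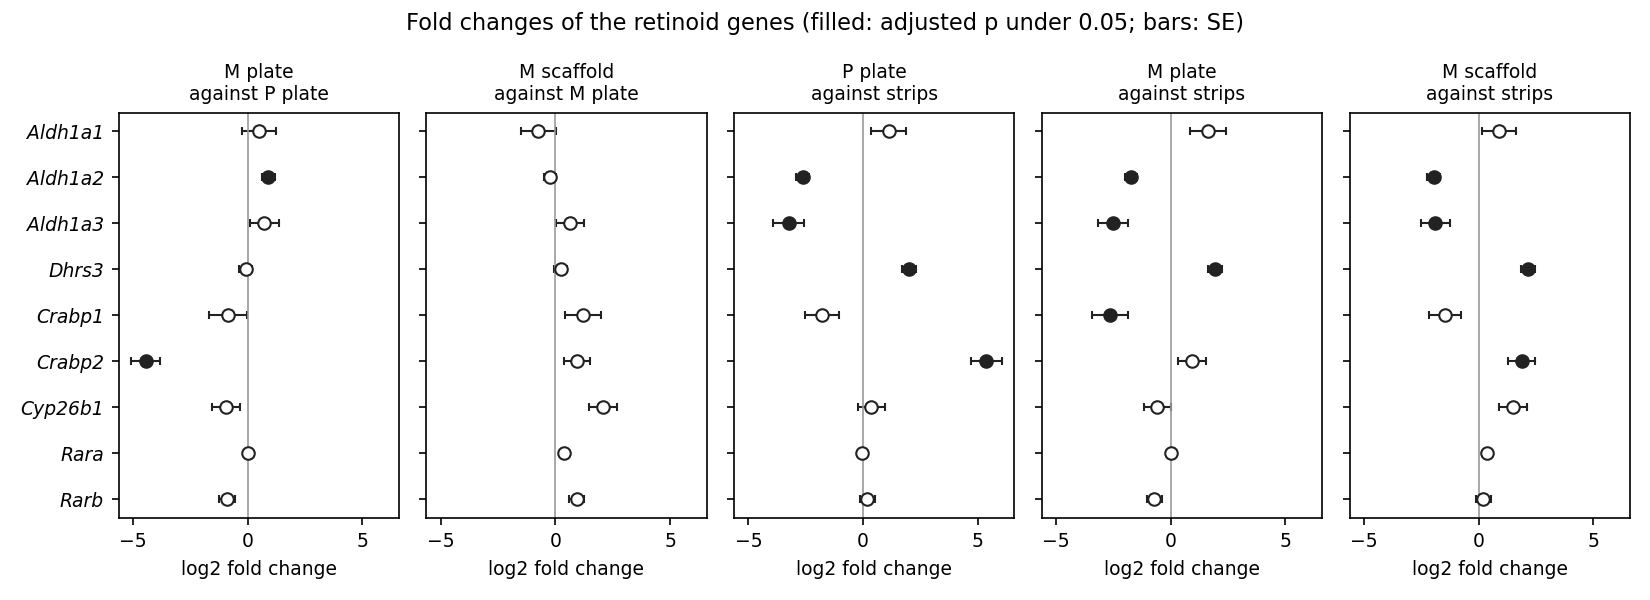
Log2 fold change of each of the 9 genes (rows) in 5 comparisons (panels), with bars for the SE and filled points where edgeR's adjusted p was under 0.05. In M plate against P plate the filled points are Crabp2 at -4.44 and Aldh1a2 at 0.91, M scaffold against M plate has none, and against strips Aldh1a2 and Aldh1a3 are lower and Dhrs3 higher in each culture.

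The rest of the pathway was read from 5 lists of 75 genes in all, of which 63 passed the filter. In M plate against P plate 11 were higher (17.5%) and 5 lower (7.94%), near the 14.3% and 10.6% of all genes, so the counts of these lists are descriptions and no result about the pathway. The median log2 fold change was 0.03 beside -0.0044 over all genes tested. Among genes of uptake, transport and storage, 1 of 13 tested was higher and 1 lower. The retinol transporter gene Stra6 fell from 2.87, 1.17 and 2.17 CPM in P plate to 0.201, 0.178 and 0.267 in M plate (-3.23 ± 0.77, adjusted p = 0.0124), and was not called without M plate replicate 1 (0.0512) or 2 (0.0522). The carboxylesterase gene Ces1d rose by 3.97 ± 0.95 (adjusted p = 0.0129) from 0.0911 to 1.46 CPM by mean. Of 11 oxidoreductases 2 were higher and 1 lower. The alcohol dehydrogenase gene Adh1, whose enzyme oxidises retinol among other alcohols, rose from 0.0821, 0.277 and 0.191 CPM to 6.59, 5.66 and 10.5 CPM, by 5.37 ± 0.52 (adjusted p = 7.53e-05). Dhrs9 rose by 1.50 ± 0.41 (0.0232), and was called in 2 of the 6 fits that left out 1 library of these groups.

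Of the 4 hydroxylases 1 was higher: Cyp26c1 rose by 2.06 ± 0.61 (adjusted p = 0.0317), from 0.125 to 0.521 CPM by mean, and was called in 2 of 6 such fits. Of 15 receptor and co-regulator genes 3 were higher and 1 lower. The orphan receptor gene Nr2f2 rose from 57.4 ± 10.6 to 142 ± 23.1 CPM (1.31 ± 0.25, adjusted p = 0.00443). Its paralog Nr2f1 rose by 1.11 ± 0.35 (0.0422) and was called in 1 of 6 such fits. Rxrg had 2 counts over the P plate libraries and 18 over M plate, a ratio of 6.55 with a 95% counting interval of 1.57 to 58.3, and was called in 1 of 6 such fits. Of 20 genes known to respond to retinoic acid, 4 were higher and 2 lower, again near the shares of all genes (14.3% and 10.6%). Ret, the receptor of enteric neural crest cells, rose by 2.91 ± 0.39 (adjusted p = 0.000464), and Bhlhe40 fell by 1.04 on the log2 scale (0.008). Tbx1 had 0 counts in the P plate libraries and 57.4 ± 4.17 CPM in M plate, at least 1922-fold higher on a floor of 3 counts over the group. Ret is also one of the neuron markers above.

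**Figure D5:**
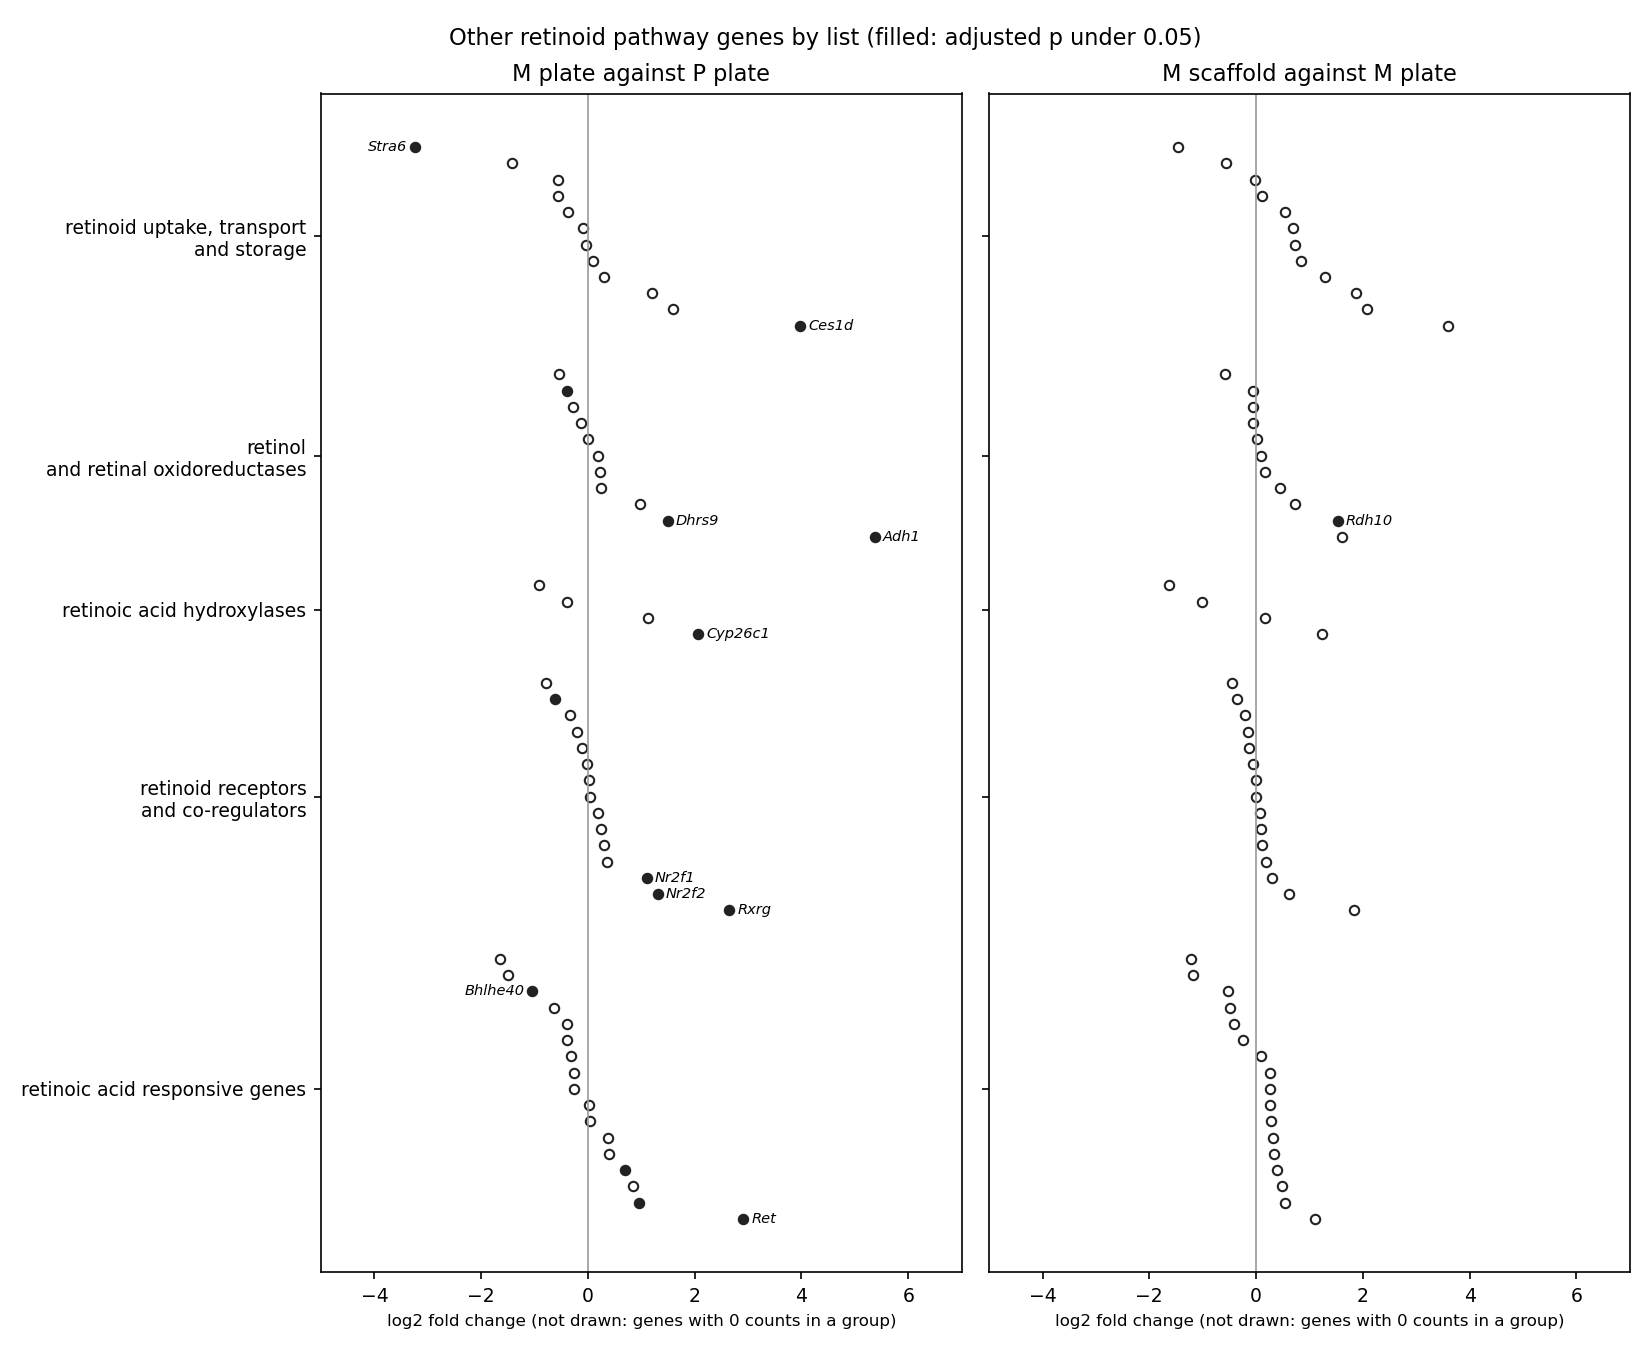
Log2 fold change of the other retinoid pathway genes, grouped by list (rows), for M plate against P plate and M scaffold against M plate; filled points had an edgeR adjusted p under 0.05, and called genes with at least a 2-fold change are named. Genes with 0 counts in any group, among them Tbx1, are not drawn. Adh1 is farthest right at 5.37 in the left panel, and Rdh10 at 1.53 is the filled point in the right panel.

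M scaffold against M plate called 1 of these 63 genes higher (1.59%, beside 1.53% of all genes) and 0 lower, with a median of 0.10 beside 0.0098 over all genes. It was Rdh10, the main retinol dehydrogenase of the embryo, which rose from 22.2, 22.8 and 19.3 CPM to 41.3, 67.2 and 77.2 CPM (1.53 ± 0.23, adjusted p = 0.0141). The call was lost without M plate replicate 2 (adjusted p = 0.0742) or 3 (0.0641). These counts and the Rdh10 test came from the unpaired fit of all 12 libraries. The replicate block within the 6 libraries called 787 genes higher and 931 lower, and its calls among these 63 genes are not given here. In M scaffold against P plate 17 were higher (27.0%, beside 15.1% of all genes) and 6 lower (9.52%, beside 9.61%), and Adh1 was again higher, by 6.98 ± 0.54 (adjusted p = 1.73e-05).

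Against strips, P plate had 17 pathway genes higher (27.0%) and 25 lower (39.7%), beside 30.5% and 32.7% of all genes. M plate had 19 (30.2%) and 21 (33.3%), beside 26.5% and 28.4%, and M scaffold 18 (28.6%) and 20 (31.7%), beside 24.5% and 27.6%. The medians were -0.33, -0.17 and -0.13, beside -0.028, -0.0072 and -0.023 over all genes. The intestinal retinol binding protein gene Rbp2 held 9.80, 96.7 and 10.8 CPM in strips and at most 0.137 CPM in any culture library. P plate was lower (-9.30 ± 1.24, adjusted p = 9.84e-05), and its highest library was the strip library high for epithelial markers. Bco1, which splits beta-carotene, held 3.18, 2.75 and 2.39 CPM in strips and 3 counts over P plate, a ratio of 88.5 with an interval of 30.1 to 431. The lipase gene Lpl was higher in P plate (4.72 ± 0.49, adjusted p = 1.81e-05), M plate (4.16 ± 0.47, 6.59e-05) and M scaffold (4.90 ± 0.49, 4.89e-05). Of the 20 tested genes known to respond to retinoic acid, 4 were higher in each culture (20%). In P plate 11 were lower (55%), in M plate 10 (50%) and in M scaffold 13 (65%), beside the shares of all genes above. They went in both directions, and the counts are descriptions with no test. Hoxa4, among the lower ones, was lower in all 3, with log2 fold changes of -3.39, -3.78 and -3.24. Its levels were 39.9 ± 11.1 CPM in strips and 3.82 ± 1.20, 2.89 ± 0.405 and 4.23 ± 0.167 CPM in P plate, M plate and M scaffold. Epithelial sums were 88.4 to 601 CPM in strips and 3.67 to 8.07 CPM in cultures, where Cdx2 was at 0 in each group, and the part of epithelial cells in these values was not tested.

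Genes with the most similar profiles were taken by Pearson's r of log2 CPM over the 12 libraries, which share the groups and their means. Aldh1a1 was closest to Net1 (r = 0.98), Tmem88 and Sema3d, and Aldh1a2 to Camk4 (0.98), Nsmce4a and Nap1l3. Aldh1a3 was closest to Phka1 (0.94), Zfp618 and Pde5a, and Dhrs3 to Hexa (0.99), Itm2c and Fam213b. Hexa held 487 CPM in P plate, 407 in M plate, 467 in M scaffold and 79.0 CPM in strips by mean. Crabp2 was closest to Cars (0.98), Card19 and H13, and Crabp1 to Chaf1a (0.94), Slbp and Ttk. For Cyp26b1, Rara and Rarb the closest genes were Tmem159 (0.89), Repin1 (0.89) and Atxn10 (0.92). These likenesses are descriptions, with no test.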

How the data were processed

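The deposited file holds raw read counts, with Ensembl genes as rows and each sample as 1 column. Per the submitters' processing notes, STAR 2.6.0 and the builds GRCm38 and mm10 were used. Per the labels' protocols, a Qiashredder and an RNeasy kit were used for RNA and TruSeq RNA kit chemistry, version 2, for libraries. The sources used here do not give the counting program, the annotation, the strand setting or how the 2 technical replicates named in the series text were joined. The 5 summary entries were left out. Of the entries that fell in genes, outside annotated features or were ambiguous, 4.20% to 7.87% per library lay outside features and 3.12% to 3.87% were ambiguous. That total leaves out alignments that were not unique, which came to 68.4 to 96.4 per 100 gene counts. Genes were named by Ensembl identifier from GENCODE M21 (52403 of 52550 matched), whose merged exons gave lengths.

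Counts were tested with edgeR 4.0.16 in R 4.3.3: filterByExpr (17700 genes), TMM, and a quasi-likelihood fit of the 12 libraries together with a term for group (8 residual degrees of freedom before sharing across genes). P-values measure the spread between these samples. On simulated counts the fit recovered the 4-fold changes put in. Gene counts of 21396485 to 116643512 per library set the precision, and intervals and floors cover counting error only. Alternatives were DESeq2 1.42.0, its size factors, no low-count filter, fits of 6 libraries, replicate blocks and leaving out libraries.

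The labels number the replicates. Deviations from the group means correlated between same-numbered M scaffold and M plate libraries with r from 0.196 to 0.304, over 0.1 in each pair, so the numbers were taken to pair these groups; in other comparisons this did not hold.

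The 9 genes, the lists and the tests were chosen with earlier results of these data known. Named were the 9 genes, pathway genes called with at least a 2-fold change in M plate against P plate, up to 3 called genes per list with the largest change in other comparisons (of which the text gives some; 1 gene that the rule takes is not reported or drawn here), and the 3 genes of closest profile, leaving out predicted genes and those under 5 CPM by mean. Cyp26a1, Rarg, Rdh10, Top2b and single markers were named for their place beside these genes.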

Additional observations from a re-analysis of the deposited data

How the results depend on the processing

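Over 6 comparisons the 9 genes gave 15 calls, of which 11 were made in every alternative. The other 4 were Aldh1a2 between the plates, Crabp1 in M plate against strips, and Aldh1a3 and Crabp2 in M scaffold against strips, with their values given above. Of 39 pairs of gene and comparison that were not called, 15 were called in at least 1 alternative. Of 707 alternative values of single genes 623 kept their direction and side of the threshold, 17 lost the call, 32 gained it and 35 changed sign, of which 0 were called in either fit; the cause was not tested.

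The changes of sign fell on 15 of 54 pairs of gene and comparison. Leaving out 1 library gave log2 fold changes in M plate against P plate of -0.09 to 0.15 for Rara, -0.04 to 1.08 for Aldh1a1 and -0.28 to 0.32 for Dhrs3. In M scaffold against P plate they were -0.22 to 0.34 for Rarb, -0.22 to 0.99 for Crabp1, -0.75 to 0.35 for Aldh1a1, -0.14 to 1.55 for Cyp26b1 and -0.03 to 0.58 for Dhrs3, and in M scaffold against M plate -0.19 to 1.35 for Crabp2 and -0.20 to 1.08 for Aldh1a3. In P plate against strips they were -0.14 to 0.43 for Rarb, -0.16 to 0.0097 for Rara and -0.01 to 0.63 for Cyp26b1, and in M plate against strips -0.12 to 0.05 for Rara. Without P plate replicate 1 and M scaffold replicate 3, Rara, Aldh1a1 and Dhrs3 gave -0.05, -0.04 and 0.32 in M plate against P plate, Crabp2 -0.17 in M scaffold against M plate and Cyp26b1 -0.27 in M scaffold against P plate. Against strips, Rarb and Rara then gave -0.13 and 0.01 in P plate, and Rarb -0.0075 in M scaffold. Rara in M plate against strips was 0.01 with no low-count filter, 0.0068 with only the 6 libraries and 0.00067 with a replicate block within them, a fit that gave 0.36 for Aldh1a1 in M scaffold against P plate.

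Counts over all genes that moved by over 1.5 times follow, beside 2532 higher and 1868 lower in M plate against P plate, 271 and 291 in M scaffold against M plate, and 2674 and 1701 in M scaffold against P plate. DESeq2 called 1146 higher and 873 lower in M scaffold against M plate. With no low-count filter, 1187 were lower in M plate and 1036 in M scaffold against P plate. With only the 6 libraries compared, which leaves fewer degrees of freedom, 1116 were lower in M plate against P plate, 455 higher and 613 lower in M scaffold against M plate, and 1419 higher and 372 lower in M scaffold against P plate. Without P plate replicate 1 and M scaffold replicate 3, 724 were higher and 631 lower in M scaffold against M plate.

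With a replicate block in the fit of 12 libraries, 169 genes were lower in M scaffold against M plate. With a replicate block within the 6 libraries compared, a setting added after seeing the data, 942 were higher and 358 lower in M plate against P plate, 787 and 931 in M scaffold against M plate, and 811 and 104 in M scaffold against P plate. P plate against strips then had 3374 higher, beside 5390. Of the calls of the 9 genes, the block within 6 libraries removed Aldh1a2 in M plate against P plate (1.00, adjusted p = 0.143) and Crabp2 in M scaffold against strips (1.61, 0.0578). It added Aldh1a1 in M scaffold against M plate and, against strips, Aldh1a1 (1.62, 0.00221), Crabp2 (0.97, 0.0345) and Rarb (-0.69, 0.0262) in M plate and Crabp1 in M scaffold (-1.57, 0.0371).

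Leaving out 1 library gave 1818 to 2975 genes higher and 812 to 2213 lower in M plate against P plate, 7 to 225 and 11 to 131 in M scaffold against M plate, and 2302 to 3019 and 912 to 1799 in M scaffold against P plate. The lowest counts for the scaffold came without M plate replicate 2.

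With no length correction, Aldh1a1 made up 72.2%, 63.0% and 20.1% of the 3 enzymes in M plate, M scaffold and strips, Aldh1a2 24.7%, 31.0% and 66.0%, and Aldh1a3 14.0% in strips. Scaled by totals alone, strips held 55.6 CPM of Dhrs3 and 36.1 CPM of Rara. TMM factors computed without the macrophage and mesothelial list genes, also added after seeing the data, changed no call of the 9 genes between the plates. Depth limits Crabp1, with 3 to 77 counts in the libraries where it was found.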
